A study of Homo sapiens with 2 samples.

Results

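A set of 10 genes of the tumour necrosis factor (TNF) superfamily were followed in HCT116 cells after knockdown of RAP1. The array held 18132 genes with a probe set annotated to them alone. The 10 were 4 ligands (TNFSF18, TNFSF9, TNFSF10 and TNFSF15), 5 death receptors (FAS, TNFRSF10A, TNFRSF10B, TNFRSF1A and TNFRSF21) and the receptor TNFRSF12A. They were chosen by name with earlier results of these arrays in view, so the values below are descriptions. All 23 probe sets annotated to one of these genes alone were used, and none of their probe sets carried a second gene symbol. HCT116 is an epithelial line established from a human colorectal carcinoma. One culture was infected for 72 h with lentivirus carrying an shRNA against RAP1, numbered 4 by the submitters (shRAP1), and the other for 72 h with lentivirus carrying a negative-control shRNA (shNC), both at a multiplicity of infection of 20. Each culture gave 1 array, and a single shRNA sequence was used against RAP1. A single array per group allows no test, no p-value and no estimate of the error between cultures, which limits how precisely any difference is known. The stated question was what RAP1 does in colorectal cancer cells.

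Ligands of the TNF superfamily are mostly trimeric membrane proteins, and they signal by clustering receptors on a neighbouring cell or, once shed, at a distance. Death receptors carry a cytoplasmic death domain that recruits adaptors such as FADD or TRADD, through which caspase-8 can be activated and apoptosis started. Other receptors of the family bind TRAF adaptors instead and lead to NF-kB and MAP kinase signalling. In the gut epithelium and in carcinomas derived from it, these receptors take part in cell turnover and in killing by immune cells. The protein RAP1 encoded by TERF2IP is a telomere-binding protein that has also been described in NF-kB signalling, whereas RAP1A and RAP1B encode unrelated small GTPases.

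The name RAP1 in the labels does not say which of these genes was meant. The single probe set of TERF2IP read 624 in shRAP1 and 1311 in shNC, so the shRAP1 culture stood at 47.6% of the control. The brightest probe sets of RAP1A and RAP1B stood at 88.0% and 93.3%. Intensities are on the linear scale as the authors deposited them, and every difference below is shRAP1 minus shNC on the log2 scale. A probe set counted as measured where at least 1 of its values reached the floor, the median of all non-control values (78.0 linear, 6.29 log2), and a gene was read from its brightest measured probe set. That left 10437 measured genes, of which 53.2% were higher in shRAP1, with a median difference of 0.010, an SD of 0.16 and a central 95% between −0.29 and 0.32. Of 8 epithelial markers, 7 were measured, 6 higher in shRAP1 and 1 lower. Their summed intensity was 32895 in shRAP1 and 32043 in shNC. The lower one was the epithelial adhesion gene EPCAM, at 6292 in shRAP1 and 6661 in shNC, a difference of −0.082. The highest was CDH1 at 0.12, while LGALS4 was below the floor. Of 9 leukocyte markers in the annotation, 2 were measured (CD68 and CD79A), with sums of 208 in shRAP1 and 189 in shNC, and all 6 probe sets of PTPRC, the pan-leukocyte marker, read 11.4 or less on both arrays. Of 10 fibroblast and endothelial markers, VWF and KDR were measured, with sums of 213 in shRAP1 and 208 in shNC. Both cultures were labelled HCT116, with no other cell type named, and whether any other cell type adds to these readings was not tested. In bulk RNA, fewer cells of a kind and less RNA per cell cannot be told apart.

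Among the ligands, TNFSF18 was lower in shRAP1 and TNFSF9 was almost level, while TNFSF10 and TNFSF15 were not measured above the floor. TNFSF18 encodes the ligand of GITR, a co-stimulatory receptor of T cells. Its brighter probe set read 46.1 in shRAP1 and 119 in shNC (5.53 in shRAP1 and 6.89 in shNC on the log2 scale), which is 38.9% of the control and a difference of −1.36. The shRAP1 value lay below the floor and the shNC value was 1.52 times the floor, so the size of this difference and its place among other genes are uncertain. With the shRAP1 value raised to the floor the difference would be −0.61, smaller in size than that of TERF2IP at −1.07. The other TNFSF18 probe set read 33.0 in shRAP1 and 39.4 in shNC, a difference of −0.26 with both values below the floor. Both probe sets were therefore lower in shRAP1, by very different amounts.

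**Figure D1:**
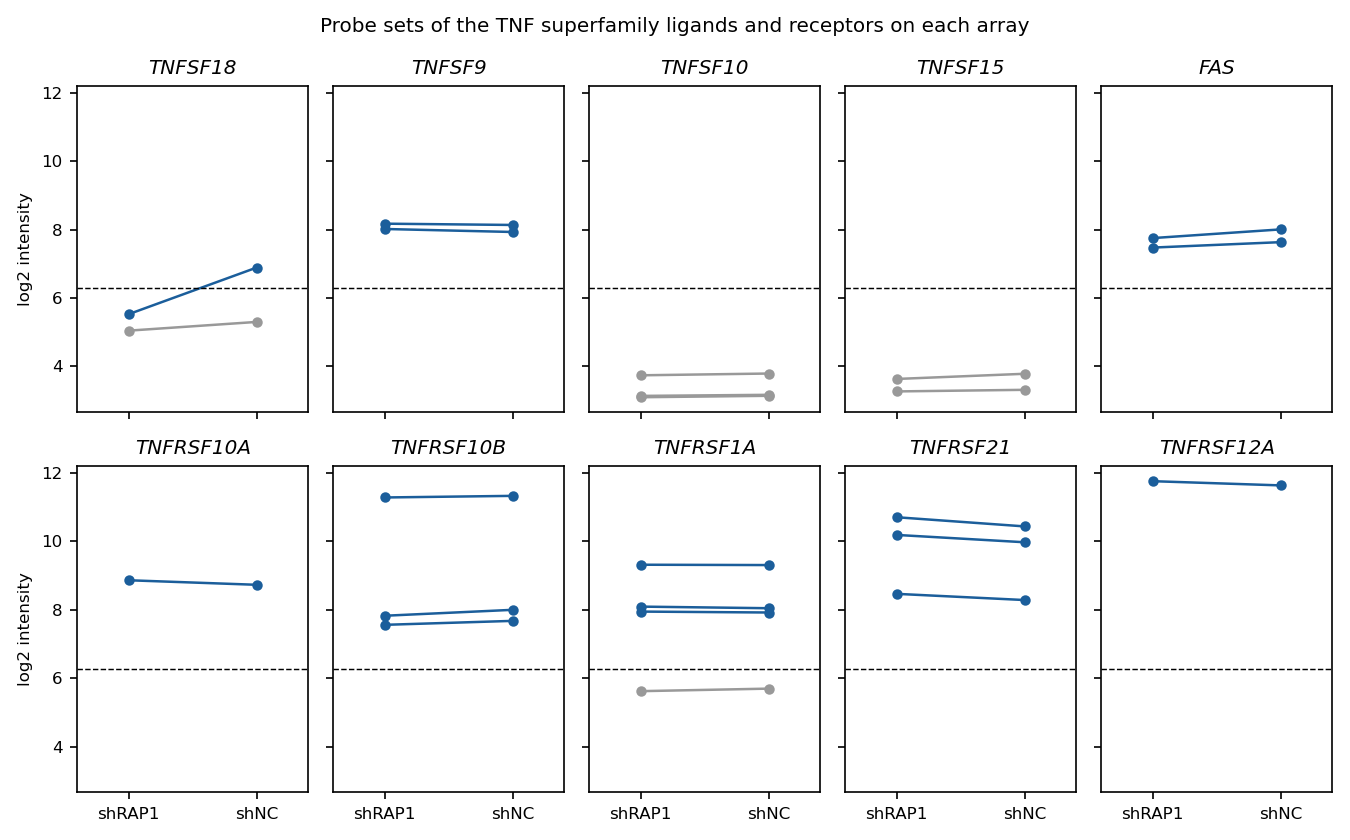
Log2 intensity (vertical axis) of every probe set of the 10 genes in shRAP1 (left) and shNC (right), with a line joining the values of 1 probe set. Blue probe sets passed the floor (dashed line at 6.29), grey ones did not. The brighter TNFSF18 probe set lies at 5.53 in shRAP1 and 6.89 in shNC, whereas TNFSF10 and TNFSF15 stay under the floor on both arrays.

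TNFSF9, the ligand of a T cell co-stimulatory receptor encoded by TNFRSF9, was measured by 2 probe sets. The brighter read 288 in shRAP1 and 281 in shNC, a difference of 0.038, and the other read 259 in shRAP1 and 244 in shNC, a difference of 0.088. Both were higher in shRAP1 by less than the SD over the 500 genes closest to it in mean intensity (0.16), a spread between genes and not an error between cultures. TNFSF10 encodes TRAIL, the ligand of TNFRSF10A and TNFRSF10B that can kill tumour cells. Its 3 probe sets read 13.4, 8.82 and 8.58 in shRAP1 and 13.9, 9.01 and 8.83 in shNC. TNFSF15, a ligand that activates T cells through TNFRSF25, had 2 probe sets, which read 12.4 and 9.65 in shRAP1 and 13.8 and 9.97 in shNC. All 5 of these probe sets were a little lower in shRAP1, but they lie far under the floor on both arrays and no fold change is given for them.

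The regions around the annotated starts of 3 genes are shown because these genes had the lowest difference of the ligands and the lowest and highest differences of the death receptors. Each window runs from 250 bases before the start to 50 bases after it, from RefSeq on GRCh38.p14. TNFSF18 lies at chr1:173050892-173051191 on the minus strand, FAS at chr10:88991181-88991480 on the plus strand and TNFRSF21 at chr6:47309856-47310155 on the minus strand. For FAS, whose table holds windows at 3 annotated starts, the window with a match to the NF-kB motif is shown, picked after the search. Capitals mark motif matches on either strand.
TNFSF18: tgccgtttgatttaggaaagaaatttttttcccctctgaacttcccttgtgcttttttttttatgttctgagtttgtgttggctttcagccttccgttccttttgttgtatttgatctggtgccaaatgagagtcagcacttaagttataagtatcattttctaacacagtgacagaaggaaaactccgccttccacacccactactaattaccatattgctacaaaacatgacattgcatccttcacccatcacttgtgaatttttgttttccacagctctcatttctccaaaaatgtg
FAS: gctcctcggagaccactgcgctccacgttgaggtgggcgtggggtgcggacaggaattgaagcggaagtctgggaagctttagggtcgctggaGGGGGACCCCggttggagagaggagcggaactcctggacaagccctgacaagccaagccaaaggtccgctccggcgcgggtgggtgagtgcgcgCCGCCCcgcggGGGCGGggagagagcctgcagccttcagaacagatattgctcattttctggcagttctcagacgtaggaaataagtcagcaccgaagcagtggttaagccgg
TNFRSF21: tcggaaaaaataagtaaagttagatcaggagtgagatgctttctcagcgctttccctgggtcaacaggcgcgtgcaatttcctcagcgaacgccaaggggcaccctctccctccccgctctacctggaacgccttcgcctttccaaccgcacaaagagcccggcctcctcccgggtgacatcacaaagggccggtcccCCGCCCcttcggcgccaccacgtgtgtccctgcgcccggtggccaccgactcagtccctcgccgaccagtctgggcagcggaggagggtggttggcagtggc

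The motifs searched on both strands were the TATA box TATAAA, the AP-1 motif TGANTCA, the GC box GGGCGG and the NF-kB consensus. They do not overlap in the windows shown. Of 35116 promoter windows in the table, 11.5%, 7.71%, 45.0% and 5.91% held them in that order. Windows of 7 of the 10 members were searched. The TNFSF18 window held none of these motifs. The FAS window shown held 1 NF-kB match, starting at −157 from the annotated start, and 2 GC boxes, while the TNFRSF21 window held 1 GC box, starting at −52. TNFSF10 and TNFSF9 had a TATA box, starting at −31 and −30, and TNFSF15 had an AP-1 match, starting at −120. TNFSF9 also held 2 GC boxes, and the other FAS windows held 1 GC box each and, in 1 of them, an AP-1 match starting at −242. Of these motifs, TNFRSF1A had none. A match describes letters and not a bound site.

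The death receptors did not move one way. FAS was lower in shRAP1, TNFRSF10B slightly lower, TNFRSF1A level, and TNFRSF10A and TNFRSF21 higher. FAS encodes the receptor of FAS ligand and is a known p53 target gene. Its brighter probe set read 215 in shRAP1 and 257 in shNC, which is 83.8% of the control and a difference of −0.25. The other read 178 in shRAP1 and 198 in shNC, a difference of −0.16, so both FAS probe sets were lower in shRAP1. The brighter difference was 1.58 times the SD of genes of that intensity in size, and 4.02% of all measured genes were as low or lower. Both probe sets of FASLG, the gene of its ligand, were below the floor on both arrays, at 24 or less.

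TNFRSF21 encodes death receptor 6, which is widely expressed and acts through JNK as well as apoptosis. Its 3 probe sets read 1673, 1169 and 354 in shRAP1 and 1389, 1008 and 313 in shNC. The differences were 0.27, 0.21 and 0.18, all higher in shRAP1. The largest was 1.90 times the SD of genes of that intensity, and 4.54% of all measured genes were as high or higher. TNFRSF21 was the highest of the measured members.

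TNFRSF10A and TNFRSF10B encode the death-inducing TRAIL receptors. They lie on chromosome 8 in a run of 4 genes with TNFRSF10C and TNFRSF10D, which encode decoy receptors that bind TRAIL without a working death domain. TNFRSF10A read 467 in shRAP1 and 426 in shNC on its single probe set, a difference of 0.13. The 3 probe sets of TNFRSF10B read 2496, 227 and 189 in shRAP1 and 2579, 257 and 205 in shNC, differences of −0.047, −0.17 and −0.12. The brightest of these has the suffix _x_at, which marks probes that can match other transcripts. All 3 were lower in shRAP1, TNFRSF10A was higher, and each gene lay within 1 SD of genes of its intensity on its brightest probe set. TNFRSF10D was higher on both of its probe sets, at 767 and 135 in shRAP1 and 664 and 114 in shNC, differences of 0.21 and 0.24. The probe sets annotated to TNFRSF10C alone were below the floor. The neighbouring TRAIL receptors therefore did not share a direction in these 2 arrays.

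TNFRSF1A encodes the main receptor of soluble TNF and leads to NF-kB or to cell death. Its 3 measured probe sets read 639, 274 and 248 in shRAP1 and 635, 265 and 243 in shNC. The differences of 0.010, 0.047 and 0.027 were the smallest among the members for the brightest probe set, at 0.071 times the SD of genes of that intensity. The fourth probe set was below the floor, at 49.4 in shRAP1 and 52.0 in shNC. All 3 measured probe sets carry the suffix _s_at, which marks probes shared between transcripts. TNF itself was below the floor on both arrays, and LTA, which encodes another ligand of this receptor, read 142 in shRAP1 and 138 in shNC, a difference of 0.037.

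TNFRSF12A is the one receptor of the group without a death domain. It encodes Fn14, a small receptor of the cytokine TWEAK that binds TRAF adaptors. Its single probe set read 3472 in shRAP1 and 3188 in shNC, a difference of 0.12, which is 1.11 times the SD of genes of that intensity. TNFSF12, the gene of TWEAK, read 106 in shRAP1 and 105 in shNC. Receptor and ligand were thus both within 1.1-fold of the control.

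**Figure D2:**
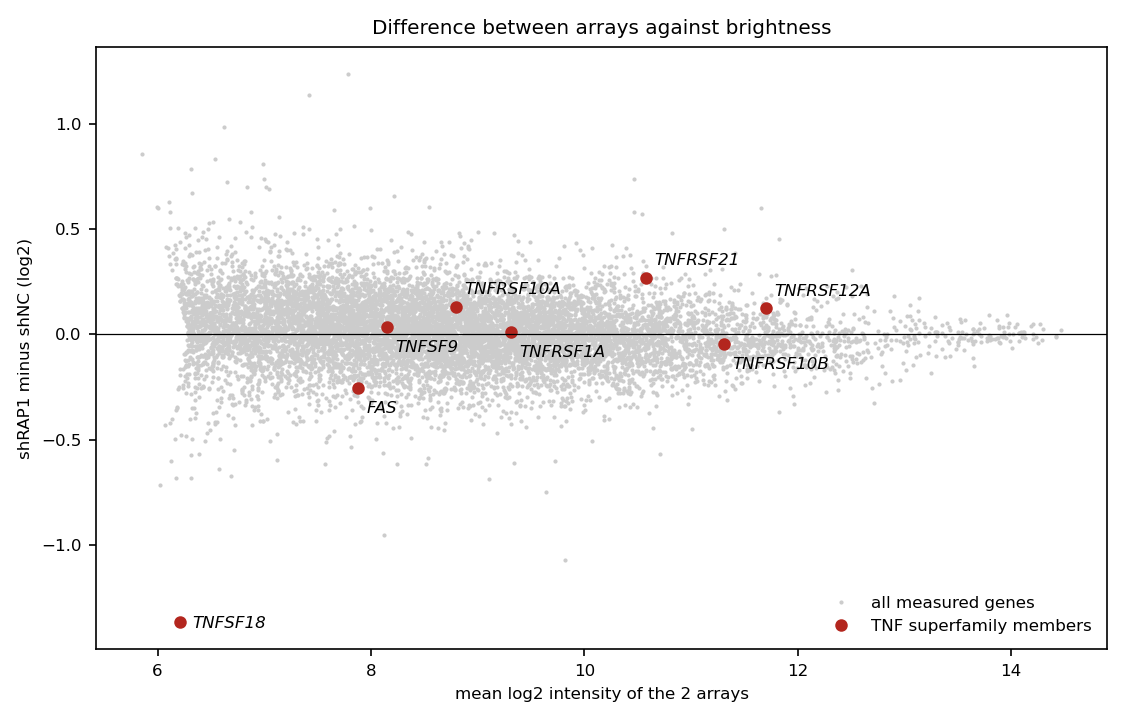
Difference between arrays (vertical axis, shRAP1 minus shNC, log2) against the mean log2 intensity of both arrays (horizontal axis), for the 10437 measured genes in grey and the 8 measured members in red. TNFSF18 lies at the low end of intensity at −1.36, from an shRAP1 value below the floor, and would lie at −0.61 with that value at the floor. The 7 other members lie between −0.25 and 0.27 within the grey cloud.

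Of the 10 members, 8 passed the floor, 3 of them lower in shRAP1 and 5 higher, with a median difference of 0.024. At a size of 1.2-fold (0.26 log2), 1 member was lower (TNFSF18), against 3.58% of all measured genes, and 1 was higher (TNFRSF21), against 4.96%. With the differences centred on a lowess trend over intensity, these background shares were 4.42% lower and 3.61% higher. TNFRSF21 at 0.27 lay just past this size and FAS at −0.25 just short of it. At 1.5-fold, 1 member was lower, against 0.172% of all measured genes, and 0 were higher, against 0.211%. At 2-fold TNFSF18 was again the 1 member that was lower, against 0.0192%, and with its shRAP1 value at the floor it would be 1.52-fold lower and not reach this size. The members were chosen from this comparison, so nothing is read from these shares. All 5 members with 2 or more measured probe sets had them of one sign, as did 60.2% of the 6135 such genes on the array.

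The receptors and ligands that pair with the members were read next. TNFRSF18, which encodes GITR, the receptor of the TNFSF18 protein, read 408 in shRAP1 and 380 in shNC, a difference of 0.10. TNFRSF9, the receptor gene for the TNFSF9 ligand, was below the floor at 12.5 in shRAP1 and 14.3 in shNC. TNFRSF25, a death receptor for the TNFSF15 ligand, read 407 in shRAP1 and 321 in shNC, a difference of 0.34 and the highest of the measured receptors annotated alone. Its other probe set, below the floor, read 63.3 in shRAP1 and 65.2 in shNC, a difference of −0.041, so the probe sets of this gene did not share a direction. TNFRSF11B, which encodes the soluble TRAIL-binding protein osteoprotegerin, was below the floor at 10.2 in shRAP1 and 10.3 in shNC.

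TNFRSF6B encodes a soluble decoy receptor that binds FAS ligand and the TNFSF15 and TNFSF14 proteins. The 2 probe sets that hit it also carry the symbol of the readthrough transcript RTEL1-TNFRSF6B and were left out of all gene counts. They read 2829 and 1740 in shRAP1 and 1983 and 1190 in shNC, differences of 0.51 and 0.55, or 1.43-fold and 1.46-fold higher. Of 25101 probe sets past the floor, 0.311% and 0.215% were as high or higher. The 5 probe sets that carry RTEL1, a helicase gene upstream, together with the same readthrough transcript differed by −0.071 to 0.10. These probe sets were singled out after their values were seen.

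Across the rest of the family, receptors stood higher in shRAP1 on balance. Of 23 other receptors, 8 were measured, 7 of them higher and 1 lower, against 53.2% of all measured genes higher, with a median difference of 0.19 against 0.010 over all measured genes. With no floor, 15 of 22 were higher and the median was 0.079, against a median of 0.017 over all 18132 genes. TNFRSF25 was the 1 gene at least 1.2-fold higher, against 4.96% of all measured genes. CD40, a receptor that activates antigen-presenting cells, read 416 in shRAP1 and 349 in shNC, a difference of 0.25, with its other probe set at 0.082. LTBR, the lymphotoxin beta receptor and a trigger of non-canonical NF-kB signalling, read 1237 in shRAP1 and 1058 in shNC, a difference of 0.23, with its other probe set at 0.30. LTBR lies near TNFRSF1A on chromosome 12, which was level. NGFR, the neurotrophin receptor, was the lower gene at −0.0061, with its other measured probe set at 0.11. When a gene was the median of its probe sets, 8 other receptors were higher and 0 lower. Their median was then 0.16, against 0.0058 over all measured genes. The measured member receptors and the other receptors together gave 14 receptors, 11 higher and 3 lower, with a median of 0.13. Over all measured genes, 53.2% were higher.

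Few other ligands were measured. Of 14, the 3 past the floor were LTB at −0.068, LTA at 0.037 and TNFSF12 at 0.015. Their median of 0.015 was −0.038 with lowess centring, so it had no settled sign. The ligand genes next to TNFSF18 on chromosome 1, FASLG and TNFSF4, were below the floor, as were CD70 and TNFSF14 next to TNFSF9 on chromosome 19 and TNFSF8 next to TNFSF15 on chromosome 9. TNFSF4 read 33.4 in shRAP1 and 38.3 in shNC on its brighter probe set. TNFSF13 had no probe set of its own.

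Genes that carry the death signal were balanced. Of 20 adaptor, caspase and mitochondrial-step genes, 14 were measured, 7 higher and 7 lower, with a median of 0.0023 that was −0.0076 with lowess centring. CASP8, the initiator caspase of death receptors, was the 1 gene at least 1.2-fold lower, against 3.58% of all measured genes, at 319 in shRAP1 and 383 in shNC, a difference of −0.26. Its 5 measured probe sets ran from −0.26 to 0.071, so they did not share a direction. CFLAR, which encodes the caspase-8 inhibitor FLIP, read 166 in shRAP1 and 198 in shNC, a difference of −0.25, with its other measured probe set at −0.14. XIAP, an inhibitor of effector caspases, was at −0.19, with 4 probe sets between −0.40 and −0.16. BAK1, which permeabilises mitochondria, was at 0.22, with 4 probe sets between 0.13 and 0.22.

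Adaptors and ubiquitin enzymes of the NF-kB branch were mostly higher by small amounts. Of 20 such genes, 15 were measured, 13 higher and 2 lower, against 53.2% of all measured genes higher, with a median of 0.11. The count of higher genes was 12 with lowess centring, where the median was 0.12, against −0.0012 over all measured genes. With no floor, 18 genes were read, 13 higher and 5 lower. Their median was then 0.099, against 0.017 over all genes, so the count of lower genes depends on the floor. TRAF5, an adaptor of several receptors of the family, read 194 in shRAP1 and 163 in shNC, a difference of 0.26, and TRAF6 was at 0.18 on 1 probe set each. The 2 lower genes among those measured, OTULIN and CYLD, both encode enzymes that remove ubiquitin chains. OTULIN read 115 in shRAP1 and 139 in shNC, a difference of −0.27 and the 1 gene of the list at least 1.2-fold lower, against 3.58% of all measured genes, with its other measured probe set at −0.24. CYLD was at −0.20, with its other measured probe set at −0.16.

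**Figure D3:**
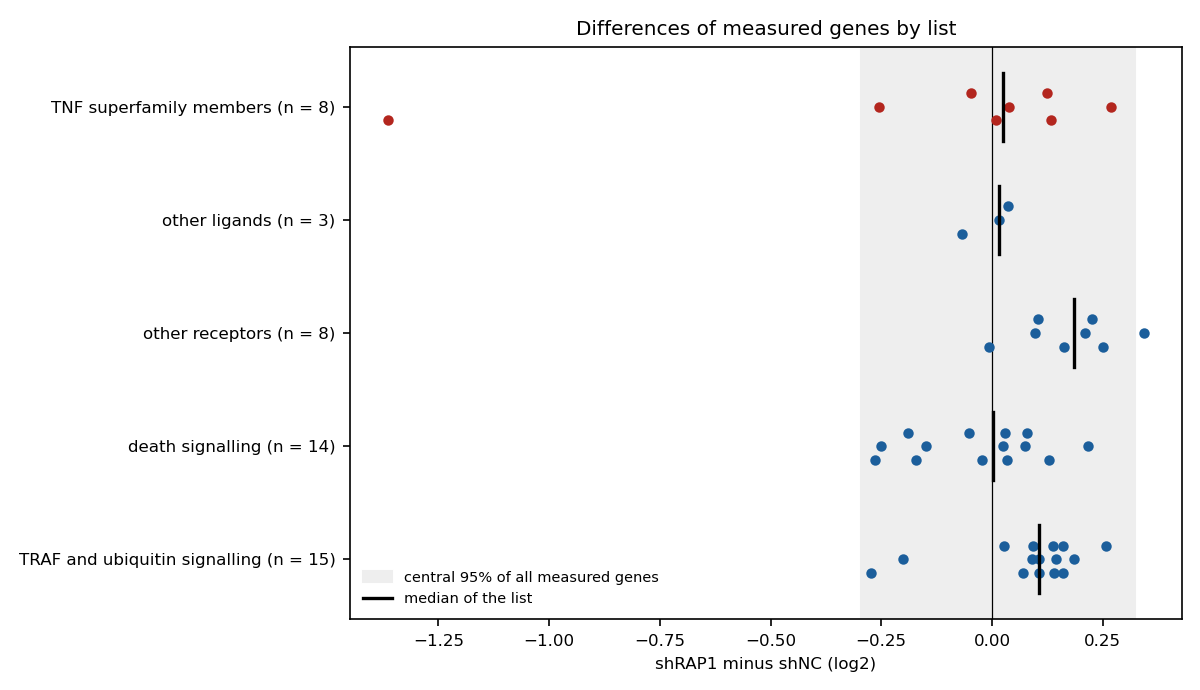
Difference of each measured gene (horizontal axis, shRAP1 minus shNC, log2) in the 8 members (red) and 4 other lists (blue), with the median of each list as a black bar and the central 95% of all measured genes (−0.29 to 0.32) shaded. The medians were 0.19 for other receptors and 0.11 for TRAF and ubiquitin genes, and lay near 0 for the members, other ligands and death signalling.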

How the data were processed

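Total RNA of 1 culture per group was labelled with biotin and hybridised to 1 Affymetrix array each, per the labels. The authors deposited 1 linear intensity per probe set and array. The submitters' processing notes name RMA alone, and its version and the genome build were not given in the sources used here. RMA sets the probe intensities of all arrays to the same quantiles before they are summarised, so a difference is relative to the remaining genes. The deposited probe set values were not equal in their medians, at 78.9 in shRAP1 and 77 in shNC over non-control probe sets. Probe sets were named from the platform annotation: 44988 carried 1 symbol, 1832 several and 2473 none. Log2 was taken with no pseudocount. RefSeq (GRCh38.p14) gave promoters and gene order. The computation was tested on simulated data with large planted differences, which says nothing about the precision of the small differences reported here.

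The members and lists were chosen with earlier results of these data known. Named genes were the members, the possible shRNA targets, the genes that pair with members, and up to 4 genes of each list with the largest size. Alternatives changed the summary of probe sets, the floor, the probe sets admitted, the centring, the pseudocount and the size counted. Python 3.11.15, numpy 2.4.6, pandas 2.3.3, statsmodels 0.14.6 and matplotlib 3.10.9 were used.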

Additional observations from a re-analysis of the deposited data

Results flagged for a closer look

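The 2 probe sets that carry both TNFRSF6B and RTEL1-TNFRSF6B were 0.51 and 0.55 higher in shRAP1 on the log2 scale. Probe sets with several symbols lie outside the comparison of genes, and these 2 were singled out after their values were seen. Signals of the decoy receptor gene and of the readthrough transcript cannot be told apart on these probe sets, and there is no replicate of either array.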

How the results depend on the processing

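Single arrays and dim probe sets set the limits of these results. Many of the 44 recomputed member differences could not move, so the count that stayed close says little about stability. A gene that stayed measured kept its brightest probe set when only the floor changed. The median of 1 measured probe set is likewise that probe set. Of the 44, 42 moved from the reported value by less than the SD of genes of similar intensity. The exceptions were TNFSF18 at −1.12 with log2 of the value plus 16, and TNFRSF10B at −0.17 when _x_at and _s_at probe sets were left out, a setting that gave no value for TNFRSF1A. With the floor at the 75th percentile TNFSF18, TNFSF9, FAS and all other ligands had no value. That left 5 measured members, of which 0 were at least 1.2-fold lower, against 3.38% of all genes measured at that floor. With lowess centring 2 of 8 measured members were at least 1.2-fold lower, with FAS at −0.29, against 4.42% of all measured genes. The count of members at least 1.2-fold higher was 0 when a gene was the median of its probe sets, against 4.32% of all measured genes. In the main setting 0 members were 1.5-fold or 2-fold higher, against 0.211% and 0.0192% of all measured genes. The median of the members was 0.12 with the higher floor and −0.019 with none, that of death signalling was −0.022 with no floor, and that of the other receptors was 0.079 with no floor. The death signalling median was −0.0076 with lowess centring. The median of other ligands was −0.026 without _x_at and _s_at probe sets and −0.038 with lowess centring. The median of TRAF and ubiquitin genes was 0.059 when a gene was the median of its probe sets. The causes of these moves were not tested. Over all 10437 measured genes, 374 (3.58%) were at least 1.2-fold lower and 518 (4.96%) higher. With no floor these were 893 (4.92%) and 1235 (6.81%) of 18132 genes. With the higher floor they were 212 (3.38%) and 202 (3.22%) of 6274 genes. No paired analysis was possible because each group has 1 array.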

Other observations

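The 2 probe sets that carry TNFSF13, a ligand of B cell survival receptors, together with the readthrough transcript TNFSF12-TNFSF13 read 130 and 29.4 in shRAP1 and 98.5 and 22.5 in shNC, differences of 0.40 and 0.38. The dimmer of them was below the floor on both arrays. Among the 9 CFLAR probe sets, those below the floor ran from −0.36 to 0.52, a wider range than the 2 measured ones at −0.25 and −0.14.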
